A study of Arabidopsis thaliana with 69 samples.

Results

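miR158a-3p, miR158b and miR158a-5p are the mature microRNAs (miRNAs) of the Arabidopsis MIR158 family, and BUB3.2 (AT1G49910) and SPY (AT3G11540) are the genes with miR158a-3p cleavage sites that passed the authors' adjusted p of 0.05 in at least 2 embryo libraries. The 3 miRNAs were chosen by family name from 427 mature miRNAs in the sRNA-seq tables, and the 2 genes from 1597 genes with a listed site in the nanoPARE tables. Because these readouts chose the members, their values are given as descriptions without tests.

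The series holds 69 libraries. The 33 sRNA-seq libraries comprise dcl1-5 globular embryos and Col-0 wild-type embryos of 8 stages, from preglobular and globular through early and late heart, early and late torpedo and bent cotyledon to mature green, with 3 replicates each, a dilution series of bent-cotyledon RNA (50, 5, 1 and 0.5 ng, 1 library each), and 1 library each of wild-type leaf and floral bud. The 33 nanoPARE libraries comprise the same embryonic groups and xrn4-5 seedling roots and shoots, with 3 replicates each, and 3 mRNA-seq libraries were made from dcl1-5 globular embryos. The replicates are pools of dissected embryos or tissue collected on different days. The dcl1-5 embryos carry a mutant allele of DICER-LIKE1 (DCL1) in Col-0 and were picked from self-fertilized heterozygous plants by their abnormal shape, so they are a class selected by morphology. The xrn4-5 plants carry a mutant allele of EXORIBONUCLEASE4, also in Col-0. The 27 replicated embryo sRNA-seq libraries held 1665909 to 52374393 genome-matching reads, the dilution libraries 514714 to 11426001, the leaf library 687369 and the floral bud library 2889900.

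DCL1 cuts plant miRNA precursors from stem-loop transcripts into short duplexes, from which 1 strand is loaded into ARGONAUTE proteins and guides cleavage of complementary transcripts, typically opposite the bond between miRNA bases 10 and 11. The 3′ fragment left by such a cut starts with an uncapped 5′ end, which nanoPARE, a method that sequences transcript 5′ ends, can detect. XRN4 is the cytoplasmic exonuclease that degrades these fragments. BUB3 proteins are WD40-repeat components of the spindle assembly checkpoint, which holds mitosis until chromosomes are attached, and plant BUB3 proteins also act at the phragmoplast during cytokinesis. SPY (SPINDLY) is a protein O-fucosyltransferase that modifies DELLA proteins and is known as a repressor of gibberellin responses.

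The mature sequences are shown 5′ to 3′ because the family members differ in their first base and in the arm they come from. They are from RefSeq (TAIR10.1), with the seed (bases 2 to 8) in capitals.
miR158a-3p: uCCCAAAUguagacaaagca
miR158b: cCCCAAAUguagacaaagca
miR158a-5p: cUUUGUCUacaauuuuggaaa
miR158a-3p and miR158a-5p are the opposite arms of the MIR158a precursor (AT3G10745) on the minus strand of chromosome 3, at chr3:3366349-3366368 and chr3:3366391-3366411. miR158b comes from MIR158b (AT1G55591) on the plus strand at chr1:20772273-20772292. miR158a-3p and miR158b share their seed and differ only by U1C, counted from the 5′ end of the miRNA. Reads that matched several loci were divided between them by the authors, so the split between miR158a-3p and miR158b is uncertain for reads that lack the first base.

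The target sites are shown next because both genes are paired with miR158a-3p in different ways. Each is the RefSeq (TAIR10.1) transcript sequence, 5′ to 3′, with bases that face a mismatched miRNA base in capitals.
BUB3.2: GgttttgtcAacatttggga
BUB3.1: GgtttCgtcAacatttggga
SPY: GgctttgtcacatttggTa
The BUB3.2 site lies in the coding sequence within exon 7 of 9, on the plus strand at chr1:18480747-18480766, and the SPY site in the coding sequence within exon 10 of 13 of AT3G11540.2, on the plus strand at chr3:3636499-3636517. The same SPY bases lie in exon 15 of 18 of AT3G11540.1. BUB3.2 forms 17 pairs with miR158a-3p, with mismatches at miRNA bases 11 and 20 and a G:U wobble at base 18. SPY forms 17 pairs when miRNA base 11 is left unpaired, with mismatches at bases 2 and 20, so that its seed pairing is interrupted and that of BUB3.2 is not. BUB3.1 (AT3G19590), the paralog of BUB3.2, carries the homologous site in exon 7 of 9 at chr3:6807767-6807786, which differs by T6C, counted from the 5′ end of the BUB3.2 site, and has an added mismatch at miRNA base 15. Base 11 of the miRNA was thus unpaired or mismatched at all 3 sites.

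The deposited complementarity scores, in which higher means poorer pairing, were 3.5 for BUB3.2, 4.5 for BUB3.1 and 6 for SPY. A score computed without gaps, with penalties doubled at miRNA bases 2 to 12, equalled the deposited score for BUB3.2 and BUB3.1 and came to 9 for SPY. The deposited SPY position, 1779, fell where the convention of the tables puts it. The deposited BUB3.2 position, 793, was 74 bases before the position counted along the RefSeq transcript, and 74 bases is also the length of the 5′ untranslated region of that transcript. Along the RefSeq transcript the BUB3.2 site starts at base 858, after the deposited position. For BUB3.1 the deposited position, 963, was 9 bases lower, at the first base of its site along the RefSeq transcript. The transcript models behind the deposited positions were not used here, so the match of these 2 sites rests on the score and the gene. In the mRNA-seq data both transcripts had the RefSeq length, 1362 bases for BUB3.2 and 1418 bases for BUB3.1. Whether the deposited positions were counted along the same models was not tested.

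miR158a-3p was an abundant embryonic miRNA whose level was highest at the late torpedo stage and lowest at the preglobular stage. Levels are given in RPM, reads of 20 to 24 bases normalised to the genome-matching reads of the library. The preglobular libraries had 620.4, 284.2 and 445.7 RPM, the globular libraries 514.6, 596.9 and 844.5 RPM, and the early heart libraries 1201, 1255 and 1281 RPM. All early heart libraries were above all globular ones, whereas the preglobular and globular libraries overlapped. The paper used a higher range of PCR cycles for samples of the globular stage and earlier than for later ones. The part of this difference in comparisons across these stages was not tested. The late heart libraries had 1882, 1898 and 1860 RPM, the early torpedo libraries 2595, 5332 and 4130 RPM, and the late torpedo libraries 7363, 6449 and 5661 RPM. At each of these stages all libraries were above all those of the stage before it, and the 3 early torpedo libraries differed from each other by far more than the 3 late heart libraries. The bent cotyledon libraries had 4538, 5512 and 4096 RPM and the mature green libraries 1162, 2035 and 1054 RPM. All bent cotyledon libraries were below all late torpedo libraries, and all mature green libraries were below all bent cotyledon libraries and overlapped the early heart and late heart libraries.

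The late torpedo mean was 6491 ± 852 RPM, against 450.1 ± 168.2 RPM at the preglobular stage (SD, n = 3 each), a ratio of 14.4 and a log2 difference of 3.91 ± 0.34 (SE, on log2(RPM + 1)). Of all 142 mature miRNAs averaging 1 RPM or more at either stage, 61.3% had every late torpedo library above every preglobular library and 7.75% every one below, and their median log2 difference was 1.55. The summed level of mature miRNAs was also higher at the late torpedo stage, at 63269 RPM against 26504 RPM. As a share of all mature miRNA RPM, miR158a-3p averaged 10.3% at the late torpedo stage and 1.67% at the preglobular stage, a ratio of 6.16, and it ranked between 2nd and 13th of all mature miRNAs in the 24 wild-type embryo libraries. Other mature miRNAs also differed without overlap between neighbouring stages. The share of mature miRNAs whose libraries were all higher was 17.1% for globular against preglobular (2.86% all lower), 21.7% for early heart against globular (2.83% lower), 23.4% for late heart against early heart, 36.1% for early torpedo against late heart (11.8% lower) and 26.3% for late torpedo against early torpedo (8.27% lower). For bent cotyledon against late torpedo 22.8% were all lower and 19.1% all higher. On the scale of shares of mature miRNA RPM, miR158a-3p overlapped for late heart against early heart, at 4.73% and 4.46% on average, for late torpedo against early torpedo, at 10.3% and 7.69%, and for bent cotyledon against late torpedo, at 9.23% and 10.3%. On that scale the globular libraries, at 2.57%, were above all preglobular libraries, at 1.67%. How many other mature miRNAs did so on that scale was not counted.

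In order of its stage means from low to high, miR158a-3p ran from preglobular over globular, early heart, mature green and late heart to early torpedo, bent cotyledon and finally late torpedo. Neighbours in this order overlapped for preglobular with globular, early heart with mature green, mature green with late heart and early torpedo with bent cotyledon. The mature green mean of 1417 ± 538 RPM was 0.30 times the bent cotyledon mean of 4715 ± 725 RPM (SD, n = 3 each), and 43.8% of 144 mature miRNAs had every mature green library below every bent cotyledon library, against 13.2% above. Against late torpedo the mature green mean of miR158a-3p was 0.22 times as high, and 42.1% of 145 mature miRNAs were lower without overlap and 17.9% higher.

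**Figure D1:**
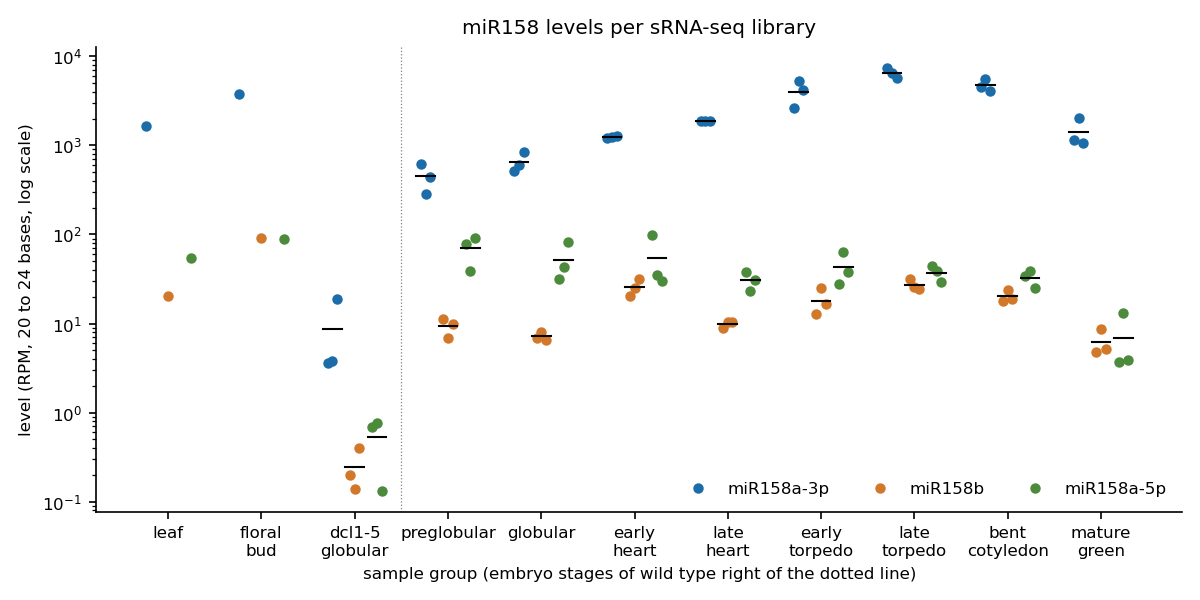
Levels of miR158a-3p, miR158b and miR158a-5p (RPM of 20- to 24-base reads, log scale) in each sRNA-seq library of leaf, floral bud, dcl1-5 globular embryos and the 8 wild-type embryo stages; points are libraries and bars are means of 3. miR158a-3p was highest in the late torpedo libraries (5661 to 7363 RPM), and all 3 miRNAs were lower in every dcl1-5 library than in every wild-type globular library.

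The 4 dilution libraries of bent-cotyledon RNA did not match the 3 bent cotyledon replicates. They had 1546 RPM of miR158a-3p at 50 ng, 1060 RPM at 5 ng, 971 RPM at 1 ng and 1158 RPM at 0.5 ng, against 4096 to 5512 RPM in the replicates. All 4 were below all 3 replicates, and their share of mature miRNA RPM was also lower, at 3.47 to 3.88% against 8.38 to 10.4%. The dilution libraries were below the replicates without overlap for 39.9% of 138 mature miRNAs and above them for 2.17%. miR158b was also lower, at 3.96 to 7.77 RPM (4 to 86 reads) against 18.1 to 23.8 RPM, whereas miR158a-5p overlapped, at 21.005 to 45.8 RPM against 24.9 to 39.3 RPM. The cause was not tested, and the ratio of means of miR158a-3p between these sets of libraries of 1 stage, 0.25, lay farther from equality than that between any neighbouring stages, 0.30 to 2.14.

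The opposite arm, miR158a-5p, did not follow miR158a-3p. It had 44.5, 38.6 and 29.0 RPM in late torpedo libraries, against 78.6, 39.0 and 91.7 RPM in preglobular libraries, and these overlapped. As a share of mature miRNA RPM it was lower at late torpedo, at 0.059% against 0.26%, without overlap. How many other mature miRNAs were lower in this way on that scale was not counted. The lowest levels of miR158a-5p were in the mature green libraries, at 3.65, 13.2 and 3.86 RPM, below every library of the other stages. Against bent cotyledon alone, 43.8% of 144 mature miRNAs were lower without overlap at mature green and 13.2% higher. The libraries of all stages but mature green spanned 23.01 to 99.1 RPM, and those next to each other in the order of means overlapped. All late heart libraries (23.01 to 38.2 RPM) were below all preglobular libraries (38.98 to 91.7 RPM). The share of all mature miRNAs was not computed for that pair of stages. miR158a-5p amounted to 15.7 ± 4.3% of the miR158a-3p level at the preglobular stage, 7.65 ± 1.89% at the globular stage, 4.47 ± 3.28% at early heart, 1.64 ± 0.41% at late heart, 1.05 ± 0.13% at early torpedo and 0.57 ± 0.05% at late torpedo (SD, n = 3 each). It stayed at 0.69 ± 0.07% at bent cotyledon and 0.44 ± 0.18% at mature green. The preglobular libraries (12.7 to 20.6%) were thus above all libraries of the other stages in this ratio. From preglobular to late torpedo the log2 ratio of the 5p to the 3p arm changed by -4.75, which was the 2nd largest change in either direction among 12 hairpins with both arms at 1 RPM or more at both stages. The median change of the 12 was -0.92, and the largest was that of miR166a, at -5.36.

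miR158b was a minor member, at 4.78 to 31.4 RPM over the 24 wild-type embryo libraries. Its highest stage means were 27.2 ± 3.6 RPM at late torpedo and 25.6 ± 5.6 RPM at early heart (SD, n = 3 each), whose libraries overlapped. It had 8.999, 10.4 and 10.4 RPM in the late heart libraries, against 20.202, 25.2 and 31.4 RPM in the early heart libraries. This drop, without overlap, went against the higher late heart level of miR158a-3p, and 3.6% of 111 mature miRNAs were lower at late heart without overlap. The early heart values rest on 42, 42 and 93 reads, in libraries of 1665909 to 2957950 genome-matching reads, against 125, 118 and 137 reads in libraries of 11299001 to 13898194 at late heart. miR158b amounted to 0.53 ± 0.04% of miR158a-3p at late heart, against 2.05 ± 0.39% at early heart, 1.15 ± 0.32% at globular and 2.14 ± 0.30% at the preglobular stage. From late heart on, the ratio stayed between 0.40 and 0.56% in every library. miR158a-3p made up 95.5 ± 5.0% of the summed family level over the 24 libraries, from 81.5% in a preglobular library to 99.3% in a mature green library.

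**Figure D2:**
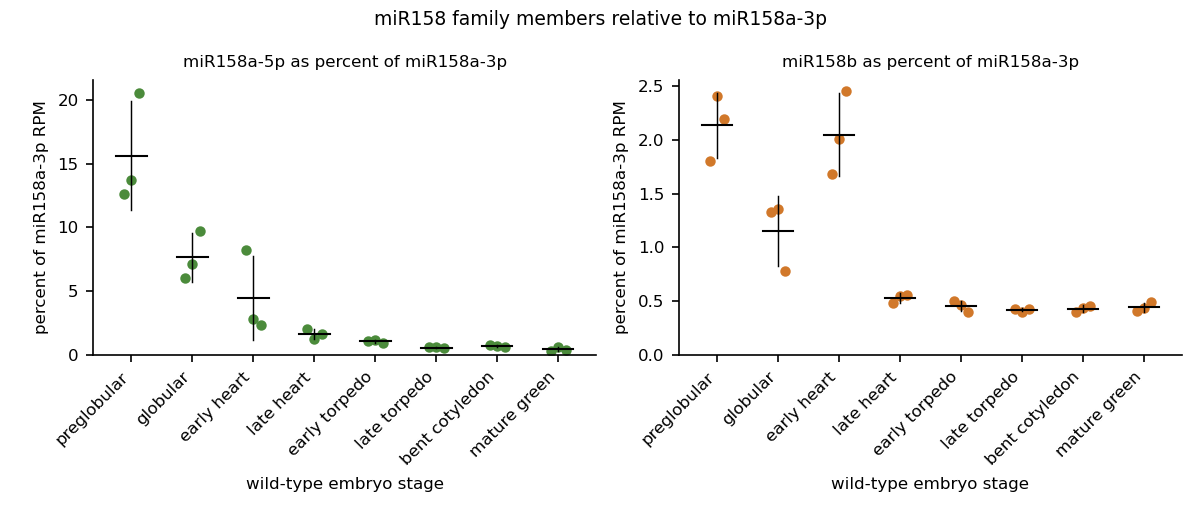
miR158a-5p (left) and miR158b (right) as a percent of miR158a-3p RPM in each wild-type embryo library by stage; horizontal bars are means and vertical bars SD of 3 libraries. The 5p arm averaged 15.7% of the 3p arm at the preglobular stage and 1.05% at early torpedo, and miR158b dropped to 0.53% at late heart, against 2.05% at early heart.

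Read lengths separated the arms. Reads of 20 bases made up 95.6 ± 1.4% of miR158a-3p (SD over 24 wild-type embryo libraries), from 90.2 to 97.0%, and reads of 21 bases 3.70 ± 1.25%. miR158a-5p was mostly 21 bases long, at 85.8 ± 7.5%, matching the annotated lengths of 20 and 21 bases. miR158b was 88.9 ± 17.0% 20-base reads, with 1 preglobular library at 14.7%, where 85.3% of its 41 reads had 21 bases.

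All 3 mature miRNAs were lower in RPM in dcl1-5 than in wild-type globular embryos. miR158a-3p had 3.65, 3.82 and 18.7 RPM in dcl1-5 libraries (110, 55 and 140 reads), against 514.6, 596.9 and 844.5 RPM in wild-type libraries. The means were 8.71 ± 8.61 and 652.0 ± 171.7 RPM (SD, n = 3 each), so that 1.34% of the wild-type level was measured, and the log2 difference was -6.39 ± 0.72 (SE). The third dcl1-5 library stood apart, and without replicate 3 of both groups the log2 difference was -6.87 ± 0.11. miR158a-5p had 0.70, 0.76 and 0.13 RPM in dcl1-5 libraries (21, 11 and 1 reads), against 31.2, 42.6 and 82.3 RPM in wild-type libraries. Its log2 difference was -5.02 ± 0.45 (SE). miR158b had 0.20, 0.14 and 0.40 RPM in dcl1-5 libraries, from 6, 2 and 3 reads, against 6.82, 8.11 and 6.58 RPM in wild-type libraries, with a log2 difference of -2.71 ± 0.12 (SE). The added 1 RPM exceeded every dcl1-5 value of miR158b and miR158a-5p, so that these log2 differences understate the change, and the ratio of means left 3.43% of the wild-type level for miR158b and 1.02% for miR158a-5p.

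No dcl1-5 library overlapped a wild-type library for any of the 3, with all dcl1-5 libraries lower, which was so for 68.8% of all 93 mature miRNAs averaging 1 RPM or more in either group (1.08% were all higher). Their median log2 difference was -2.70. The summed level of mature miRNAs was 317 RPM in dcl1-5 and 25728 RPM in wild-type embryos, 81.3 times lower in dcl1-5. Within that total miR158a-3p took up 1.15, 1.85 and 4.37% in dcl1-5 libraries, against 2.76, 2.54 and 2.41% in wild-type libraries, which overlapped. The mean shares of miR158a-5p were also close, at 0.21% in dcl1-5 and 0.19% in wild type, and that of miR158b was higher in dcl1-5 on this scale, at 0.075% against 0.030%, so its direction depended on the scaling. In the first 2 dcl1-5 libraries miR158a-5p amounted to 19.1 and 20.0% of miR158a-3p, and in the third to 0.71%, against 6.07 to 9.74% in wild-type libraries. These dcl1-5 ratios rest on 21, 11 and 1 reads of miR158a-5p, and the third value lay below the level of 3 reads, 0.40 RPM. In bulk libraries of pooled embryos, fewer cells with a miRNA and less of it per cell cannot be told apart.

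Outside the embryo, the single leaf library had 1667 RPM of miR158a-3p (95% exact binomial interval 1572 to 1767 RPM, counting error only) and the floral bud library 3751 RPM (3681 to 3822 RPM), both inside the range of the 24 embryo libraries, 284.2 to 7363 RPM. miR158b had 90.7 RPM in floral buds, above its embryonic range of 4.78 to 31.4 RPM, and 20.4 RPM in leaves. The floral bud library was above all embryo libraries for 58.2% of 220 mature miRNAs and below them for 3.64%, and the leaf library above for 60% of 225 and below for 6.67%. As a share of mature miRNA RPM, miR158a-3p was 1.29% in leaf, below its embryonic range of 1.38 to 12.05%, and 7.13% in floral buds. miR158a-5p had 90.0 RPM in floral buds and 53.8 RPM in leaves, within its embryonic range.

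The mature miRNAs most like miR158a-3p across development were miR447a.2-3p (Pearson r = 0.97), miR171a-5p (0.97), miR390b-3p (0.94), miR162a-5p (0.94) and miR165b (0.93), out of 80 compared that averaged 10 RPM or more at some stage. Likeness was r over the 8 wild-type stage means of log2(RPM + 1), and the points share libraries, depth and the rise in total miRNA. All 5 had their lowest mean at the preglobular stage and their highest at late torpedo or bent cotyledon. Their levels differed widely, with a highest stage mean of 18.8 RPM for miR447a.2-3p and 1785 RPM for miR165b. By rank correlation, or by r over the 24 libraries, 3 of the 5 remained among the first 5.

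The nanoPARE tables listed 54 miR158 sites in as many genes, 18 for miR158a-3p, 6 for miR158b and 30 for miR158a-5p. A site is listed by its RPM at its deposited position, and the authors' software gives it an adjusted p. For BUB3.2 and BUB3.1 that position differs from the predicted cut counted along the RefSeq transcript, as given above. Sites that a library does not list are taken as 0 here, although the tables do not tell an absent signal from a site that was filtered out, and the sequencing depth of these libraries is unknown. Of the 54 sites, 6 passed the adjusted p of 0.05 in at least 1 library and 2 in at least 2 libraries, those in BUB3.2 and SPY, by which they were chosen. Over all sites listed in a wild-type embryo library, 5.26% of 1483 passed in at least 2 of 24. The other 4 passed in 1 library each, namely miR158a-3p sites in AT2G03220 and AT3G03580 and miR158a-5p sites in AT5G06970 and AT5G27395. Their highest values were 1.85 RPM for AT2G03220, 0.199 RPM for AT3G03580, 1.13 RPM for AT5G06970 and 0.769 RPM for AT5G27395, against 1.48 RPM for BUB3.2 and 1.31 RPM for SPY, so the sites on either side of the threshold of 2 libraries overlapped in height.

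The BUB3.2 site was listed in 11 of 24 wild-type embryo libraries, from 0.105 to 1.48 RPM, and passed in 4. It was listed in all 3 early heart libraries, at 0.193, 0.447 and 0.667 RPM, and in all 3 early torpedo libraries, at 1.48, 0.105 and 0.909 RPM. Both stages overlapped, and 44.9% of the 78 sites passing in at least 2 wild-type embryo libraries were listed in all 3 early heart libraries. That share was not computed for early torpedo. Globular embryos had 0.394 and 0.318 RPM in 2 libraries and 0 in the third. The site was listed in 1 library each at preglobular (0.563 RPM), late heart (1.03 RPM) and late torpedo (0.562 RPM). The 4 passing values were in 1 early heart, 1 late heart and 2 early torpedo libraries. No bent cotyledon or mature green library listed it, as was so for 14.1% of those 78 sites, and these 6 libraries listed 131 to 245 sites, against 172 to 356 in the other 18 wild-type embryo libraries.

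The SPY site was listed in 15 of 24 wild-type embryo libraries, from 0.0916 to 1.31 RPM, and passed in 3. It was listed in all 3 late heart libraries, at 0.394, 1.31 and 1.07 RPM, and in all 3 early heart libraries, at 0.346, 0.848 and 0.380 RPM. The late heart mean was 0.92 ± 0.47 RPM and the early heart mean 0.52 ± 0.28 RPM (SD, n = 3 each), and these libraries overlapped. Early torpedo libraries had 0.770, 0.0916 and 0 RPM and late torpedo libraries 0.157, 0.254 and 0 RPM. The site was also listed in 1 bent cotyledon library (0.858 RPM) and in 2 mature green libraries (0.476 and 0.165 RPM), and in 1 preglobular (0.307 RPM) and 1 globular library (0.0965 RPM). Its 3 passing values were in 2 late heart libraries and 1 early torpedo library. Of the 78 sites passing in at least 2 wild-type embryo libraries, 44.9% were listed in all 3 early heart libraries. The share listed in all 3 late heart libraries was not computed, and these libraries listed 267, 356 and 243 sites.

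The highest single value thus fell in an early torpedo library for BUB3.2 and a late heart library for SPY, and not at late torpedo, where miR158a-3p was highest. Of the 24 wild-type embryo libraries, 8 listed both sites, 3 only that in BUB3.2, 7 only that in SPY and 6 neither. BUB3.2 at its highest ranked 28th of 229 listed sites in that library, and SPY 32nd of 356. The homologous site in BUB3.1 was listed in 9 of the 24 libraries, from 0.105 to 0.530 RPM, and passed in none. The only site of another miRNA in BUB3.2 or SPY was a miR3434-5p site in BUB3.2, listed in 2 globular libraries (0.580 and 0.276 RPM), and it passed in none.

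**Figure D3:**
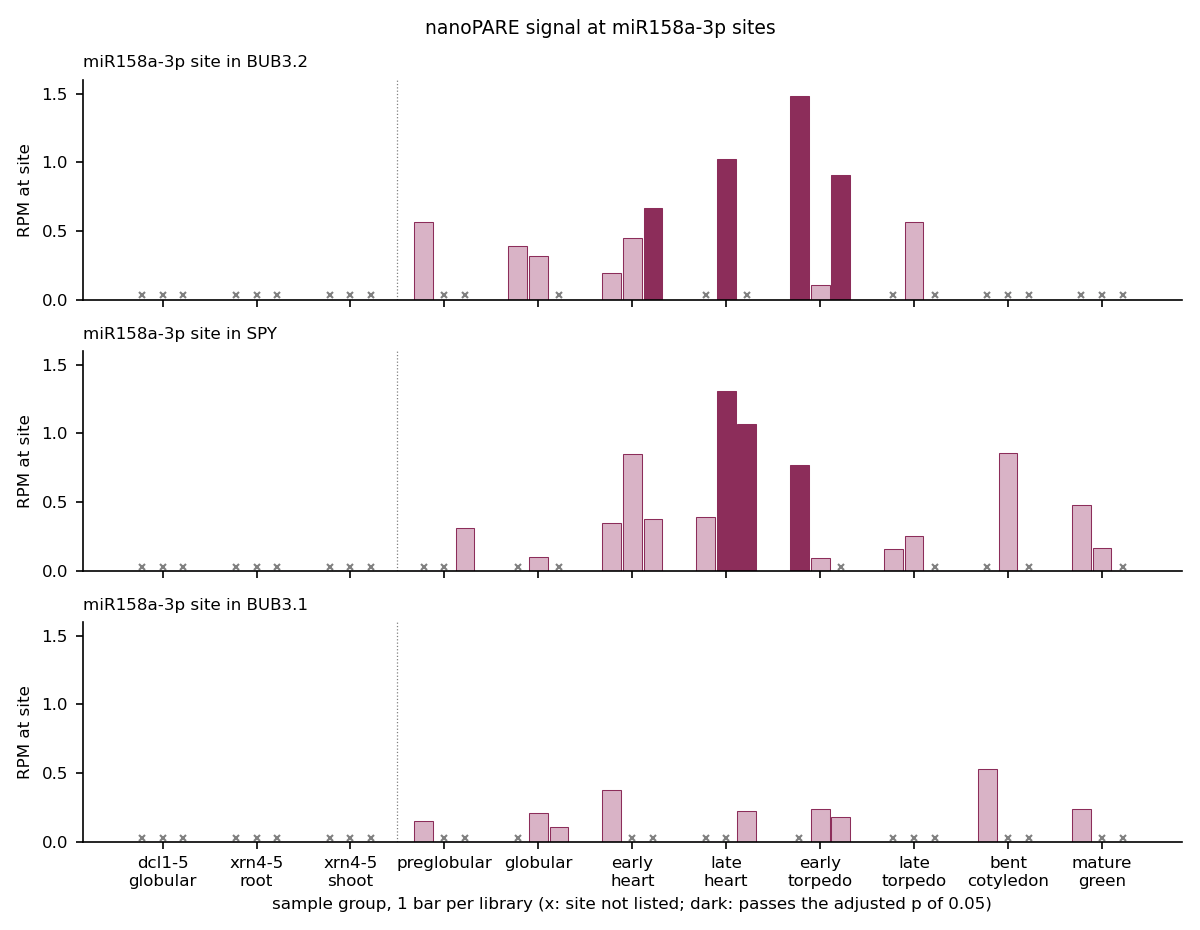
RPM at the miR158a-3p site in BUB3.2, SPY and BUB3.1 in each nanoPARE library of dcl1-5 globular embryos, xrn4-5 roots and shoots and the 8 wild-type embryo stages; each bar is 1 library, crosses mark libraries that do not list the site, and dark bars pass the authors' adjusted p of 0.05. The sites were listed in none of the 9 mutant libraries, and the highest bars were an early torpedo library for BUB3.2 (1.48 RPM) and a late heart library for SPY (1.31 RPM).

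In dcl1-5 globular embryos neither site was listed in any of 3 libraries. BUB3.2 had been listed in 2 of 3 wild-type globular libraries, and 46.2% of the 160 sites listed in at least 2 of these were in no dcl1-5 library, so that a site of this kind was missing there about as often as not. SPY had been listed in only 1 wild-type globular library, at 0.0965 RPM, and 67% of the 537 sites listed in at least 1 were in no dcl1-5 library. Of the 78 sites passing in at least 2 wild-type embryo libraries, 75.6% were in no dcl1-5 library. The dcl1-5 libraries listed 201, 177 and 66 sites, against 185, 330 and 247 in wild-type globular libraries. Without the dcl1-5 library with 66 sites, 48.1% of the 160 sites were in none of the other dcl1-5 libraries. The dcl1-5 libraries nonetheless listed 10 miR158 sites, none of which passed, and wild-type globular libraries listed 21, of which 4 were the same. One of them, a miR158a-5p site in AT1G66580 singled out after its values were seen, was listed in 27 of 33 libraries, among them 2 dcl1-5 libraries at 0.415 and 0.705 RPM, and passed in none.

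In xrn4-5 roots and shoots neither site was listed in any of 6 libraries. Of the 78 sites that passed in at least 2 wild-type embryo libraries, 32.1% were listed in no xrn4-5 library. These libraries differ from the embryo libraries in genotype, tissue and age at once, so these cannot be told apart.

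BUB3.2 and SPY transcripts were present at moderate levels in dcl1-5 globular embryos. BUB3.2 had 11.8, 5.59 and 12.1 TPM (transcript abundance normalised to length and library size), a mean of 9.83 ± 3.67 TPM (SD, n = 3), and SPY, summed over both transcripts, 9.29, 7.60 and 10.9 TPM, a mean of 9.25 ± 1.62 TPM. Both were below the median of 12.1 TPM of the 16174 genes at 1 TPM or more in all 3 libraries. The transcript in which the SPY site is deposited, AT3G11540.2, made up 47.7 ± 3.8% of SPY TPM, and the remainder, AT3G11540.1, carries the same bases. Wild-type mRNA-seq libraries were not analysed here, so no difference between dcl1-5 and wild type can be given for these transcripts.

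All 11 spindle checkpoint genes were at 1 TPM or more in every library, as were 42.9% of all 37686 genes. BUB3.1 had 48.0, 31.2 and 49.0 TPM and was 4.57 ± 0.87 times as high as BUB3.2 (SD, n = 3), and the third paralog BUB3.3 had 5.11 ± 1.31 TPM. MAD2, whose protein inhibits the anaphase-promoting complex activator CDC20 at unattached chromosomes, was the highest of the list at 104.2 ± 12.5 TPM, followed by BUB3.1 and by CDC20.1 at 35.2 ± 13.0 TPM. CDC20.2 had 11.2 ± 3.2 TPM, BUBR1/BMF2 8.99 ± 3.08 TPM, MAD1 7.76 ± 1.94 TPM, BMF1 6.30 ± 2.41 TPM, the checkpoint kinase MPS1 4.53 ± 0.64 TPM and BMF3 3.97 ± 1.64 TPM. Replicate 2 was the lowest library for all 11 genes of this list, BUB3.2 included, and for 54.3% of the 16174 genes.

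Of 12 gibberellin and O-glycosylation genes, 10 were at 1 TPM or more in every library, beside the 42.9% of all genes. SEC, the O-GlcNAc transferase related to SPY, had 7.52 ± 1.63 TPM. Among the DELLA genes, whose proteins repress gibberellin responses, RGL1 had 21.5 ± 2.2 TPM, GAI 19.9 ± 7.4 TPM, RGA 8.93 ± 2.35 TPM and RGL3 7.93 ± 2.02 TPM, whereas RGL2 averaged 0.91 ± 0.31 TPM and was under 1 TPM in 2 libraries. Of the gibberellin receptor genes GID1A had 18.5 ± 3.0 TPM and GID1B 9.22 ± 0.81 TPM, and GID1C was under 1 TPM in 2 libraries, at 0.95 and 0.61 TPM. SLY1, the F-box protein that targets DELLAs for degradation, was the highest of the list at 53.6 ± 5.9 TPM, and its homolog SNE had 6.90 ± 1.16 TPM.

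**Figure D4:**
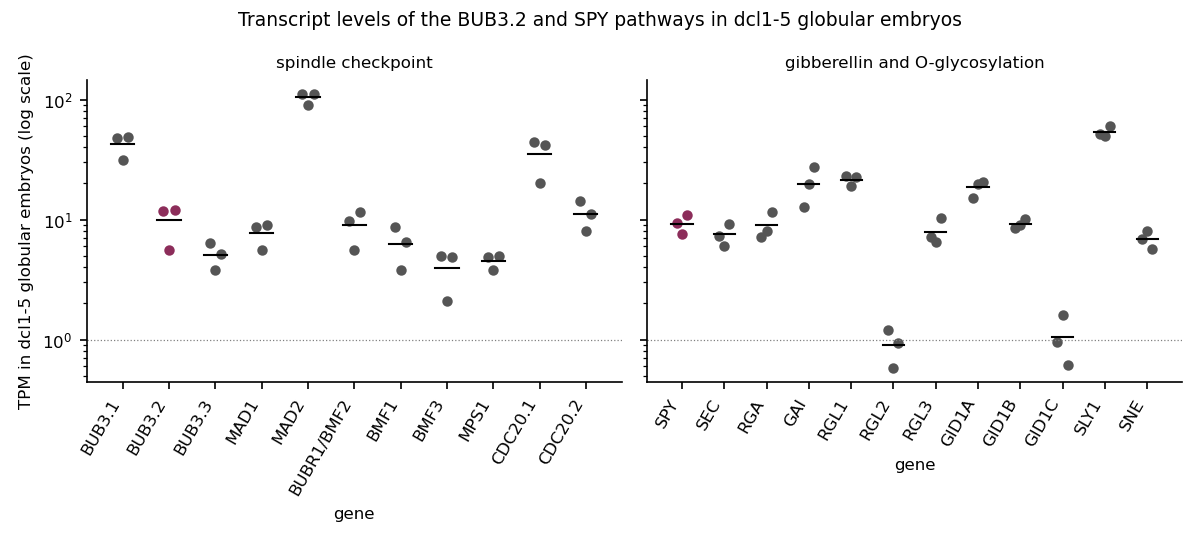
TPM (log scale) of the spindle checkpoint genes (left) and the gibberellin and O-glycosylation genes (right) in the 3 dcl1-5 globular mRNA-seq libraries; points are libraries, bars means, and the dotted line 1 TPM. BUB3.2 and SPY (coloured) averaged 9.83 and 9.25 TPM, and RGL2 and GID1C were under 1 TPM in at least 1 library.

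Markers of the embryo were present in these mRNA-seq libraries, with all 5 (WOX2, WOX8, DRN, LEC1 and ATML1) at 1 TPM or more, as 42.9% of all genes were, and a summed level of 344.0 to 389.2 TPM. None of 4 endosperm markers reached 1 TPM in any library, their summed level was 0.48 to 1.18 TPM, and IKU2 was at 0. Of 4 seed coat markers, BAN had 11.1, 16.4 and 13.0 TPM, a mean above those of BUB3.2 and SPY, and was the only one at 1 TPM or more in every library. TT10 had 0.31 to 0.81 TPM, TT12 0.50 to 0.81 TPM and TT1 0.20 to 1.45 TPM, and the summed level of the 4 was 14.1 to 17.7 TPM. The paper applied a tissue-enrichment test to its dcl1-5 transcriptomes and reported no significant contamination from nonembryonic seed tissues. The part of seed coat RNA in the TPM of BUB3.2 and SPY was not tested here.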

How the data were processed

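The authors trimmed sRNA-seq reads with cutadapt, aligned them to TAIR10 with STAR without mismatches, divided multi-mapping reads between loci and counted reads on mature miRNAs with bedtools. They deposited expected counts and RPM (counts normalised to genome-matching reads) for each read length. For nanoPARE the authors masked capped ends and ran EndCut; the deposited tables give for each site the RPM, a ratio (fold change), a complementarity score and an adjusted p-value. Signal at cleavage sites is plotted in the study relative to genome-matching reads, and whether the deposited RPM has this denominator was not checked here. The fold change was not used, and the adjusted p-values only to count passing sites. For mRNA-seq the deposited kallisto tables hold estimated counts and TPM, from 22337002 to 28896594 estimated counts per library.

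Genome-matching reads per sRNA-seq library, from count over RPM, were 1665909 to 52374393 in the 27 replicated embryo libraries. Means, SDs and differences of log2(RPM + 1) were computed with pandas 2.3.3 and numpy 2.4.6 under Python 3.11.15, and exact intervals with scipy 1.17.1. The code for log2 differences and for the overlap of libraries was tried on simulated counts with counting error only. That for Pearson r was tried on made profiles, and that for the exact intervals and SDs was not tried on simulated data. Libraries were called apart where the groups did not overlap. No test was made, since the rule used these values. Members and gene lists were chosen with earlier results of these data known. The plan for naming covered the members, the 5 most similar miRNAs, genes with a miR158 site passing in 2 libraries, and the lists. Outside that plan, AT2G03220, AT3G03580, AT5G06970, AT5G27395, AT1G66580, miR3434-5p and miR166a were also named. Sequences were read from RefSeq TAIR10.1, against which 1567 of 1572 transcript lengths in the deposited tables were equal. For 20-base miRNAs the deposited position lay 9 bases after the first base of the site for 35 of 43 sites. These 43 are only the sites with a single ungapped placement near the deposited position that gave the deposited score. Sites that need a gap or lie farther away, such as that of BUB3.2, were left out of this count. Alternatives were other read lengths, scaling, pseudocounts, minimums and left-out replicates. The wild-type mRNA-seq libraries were not used here.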

Additional observations from a re-analysis of the deposited data

Results flagged for a closer look

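Reads of 25 to 30 bases at miR158a-3p, which no comparison uses, reached 0.347 RPM in 1 early torpedo library (replicate 1). That was above the 0.208 RPM that 3 reads amount to in that library. Other libraries that held such reads were not above their level of 3 reads.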

How the results depend on the processing

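Of 54 alternative values, 48 moved by less than a spread between libraries, or for counts and shares of features by less than 1.5 times. For the site RPM and the miR158a-3p shares of read length and family, that spread was the SD over wild-type embryo libraries of all stages. By it the BUB3.2 site mean, 0.278 RPM, counted as unmoved at 0.606 RPM in listing libraries only, since the SD was 0.407 RPM. All log2 differences of miR158a-3p in dcl1-5 stayed negative. Ratios, shares, RPM, TPM and counts cannot change sign, and the miR158b share in dcl1-5 was not among the alternatives. The miR158a-3p log2 difference in dcl1-5 was -4.77 with 21-base reads only and -0.29 when libraries were scaled to the total of mature miRNA reads, and ranged from -6.87 to -6.11 when replicates were left out. The ratio of its highest to its lowest stage mean was 6.16 with that scaling. With no minimum level, 35.8% of 193 mature miRNAs had dcl1-5 and wild-type globular libraries that did not overlap, against 69.9% of 93. With 21-base reads only, miR158a-3p was 65.7% of the family. SPY had 4.86 TPM from the transcript AT3G11540.1 alone. With the replicate number as a block the log2 difference was -6.39 with an SE of 0.48; the deviations of same-numbered dcl1-5 and wild-type libraries correlated at 0.34, 0.05 and 0.19. Since the correlation for replicate 2 was near 0 and no label says that a number marks a shared batch, the numbers were not taken to pair the samples, although each library correlated best with its own number, which is a hint from the data. Leaving out replicates in turn for the gene lists, and the dcl1-5 nanoPARE library with the fewest sites, were chosen after seeing the data. Values for leaf, floral bud and the dilution series rest on 1 library each, and site values on nanoPARE libraries of unknown depth.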
